A study of Mus musculus with 8 samples.

Results

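The genes that write, copy and erase DNA methylation were measured in naïve CD4 T cells, Treg, TFH, and TFR cells of peripheral lymph nodes (pLN). The 7 genes are Dnmt1, Dnmt3a, Dnmt3b, Uhrf1, Tet1, Tet2, and Tet3, taken by name from 29924 gene names on the array. Each was represented by its brightest probe, and 16 probes of 39429 carried 1 of the 7 names. All 7 main probes were well above background on all 8 arrays. Follicular helper (TFH) cells help B cells in the germinal center, follicular regulatory (TFR) cells carry the regulatory factor Foxp3 and restrain that reaction, and regulatory (Treg) cells carry Foxp3 outside the follicle. All cells came from B6.Cg-Foxp3<tm1Mal> mice, which report Foxp3 as GFP, of mixed sex and 8 to 14 weeks of age, immunized s.c. with KLH in alum. For each of the 8 one-color arrays, 8 to 15 mice were pooled per the labels, the B220- CD4+ cells were sorted at d12 or d25, and 25 ng of RNA were used. Naïve CD4 T cells were GFP- with low PD1 and no GL7, TFH cells GFP- with high PD1 and GL7, Treg cells GFP+ with low PD1 and no GL7, and TFR cells GFP+ with high PD1 with or without GL7. Each cell type thus had 1 array at each day, so the spread between the 2 arrays of a cell type includes the day, and it may be technical in part. Cells of Peyer's Patches were not analysed here.

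DNA methylation is placed on new CpG sites by the enzymes Dnmt3a and Dnmt3b. After replication it is copied to the new strand by Dnmt1, which is brought to hemimethylated sites by Uhrf1. Tet1, Tet2, and Tet3 oxidize 5-methylcytosine, which leads to its removal by dilution or by base excision repair. In T cells these enzymes are known for their part in keeping lineage genes open or closed, among them the conserved noncoding regions of Foxp3, and Tet2 and Dnmt3a are known regulators of helper T cell differentiation.

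Levels are given in relative units (RU), scaled so that the 75th percentile of the probes lies at 1500 with a floor of 20. The probes of different genes cannot be compared by level, so each gene was followed across the cell types only. The labelled cell types were checked by their markers. Foxp3 was at 49262 and 48593 RU in Treg cells and at 37266 and 37513 RU in TFR cells, and no higher than 358 RU in naïve and TFH cells. Cxcr5, the homing receptor of the follicle, was at 182426 and 237465 RU in TFH cells, at 35322 and 35810 RU in TFR cells, and at 1400 to 4384 RU in the other two. The 7 B cell markers summed to 5906 to 10258 RU on 7 arrays and to 17661 RU in TFH cells at d25, while Pax5 was at the floor on all arrays. The 2 CD8 T cell markers summed to 4957 to 5118 RU in naïve, 4208 to 4565 RU in Treg, 2114 to 3174 RU in TFH, and 2110 to 2235 RU in TFR cells. The 5 myeloid markers summed to 14876 to 29639 RU. Itgam made most of this sum, at 13020 to 28504 RU. Lyz2 was at 1248 and 1258 RU in TFH and TFR cells at d25, and at 205 to 461 RU on the other arrays. Csf1r was at 394 to 681 RU, Cd14 at no more than 29 RU, and Adgre1 at no more than 45 RU. The plasma cell gene Jchain was at 7466 RU in naïve cells at d12 and at 418 to 3154 RU elsewhere. Without the TFH array of d25, the differences between TFH and naïve cells were 2.47 for Uhrf1, -0.75 for Dnmt3b, and -0.60 for Tet2 on the log2 scale, and without the naïve array of d12 they were 2.28, -1.23, and -0.54, all of them called. The part of the other cells in the remaining values was not tested. In bulk RNA, fewer cells of a type and less RNA per cell cannot be told apart. The 4 arrays of d12 shared a slide, naïve and TFH cells of d25 a second, and Treg and TFR cells of d25 one more. Day and slide therefore cannot be told apart, whereas TFH and naïve cells, or TFR and Treg cells, always lay on the same slide. TFR and TFH cells, and Treg and naïve cells, shared a slide at d12 only.

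Differences were tested with limma across 15764 genes, and a gene was called at an adjusted p below 0.05. Between TFH and naïve cells, 4 of the 7 genes were called: Uhrf1 rose, and Dnmt3b, Tet1, and Tet2 fell. Of all genes, 46.5% were called in this comparison. Between TFR and Treg cells, 2 of the 7 were called, Uhrf1 and Dnmt3a, both higher in TFR cells, beside 39.6% of all genes. TFR cells were higher than TFH cells in 4 of the 7 genes, Uhrf1, Dnmt3a, Tet1, and Tet2, beside 22.1% of all genes called. Treg and naïve cells differed in 2 of the 7, Uhrf1 (higher in Treg) and Tet1 (lower in Treg), beside 9.88% of all genes. These comparisons share arrays and are not independent of each other. Dnmt1 and Tet3 were called in none of them. The median log2 difference of the 7 genes was -0.37 for TFH versus naïve cells, -0.10 for TFR versus Treg cells, 0.67 for TFR versus TFH cells, and -0.12 for Treg versus naïve cells. Over all tested genes these medians were -0.07, -0.08, -0.02, and -0.02.

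**Figure D1:**
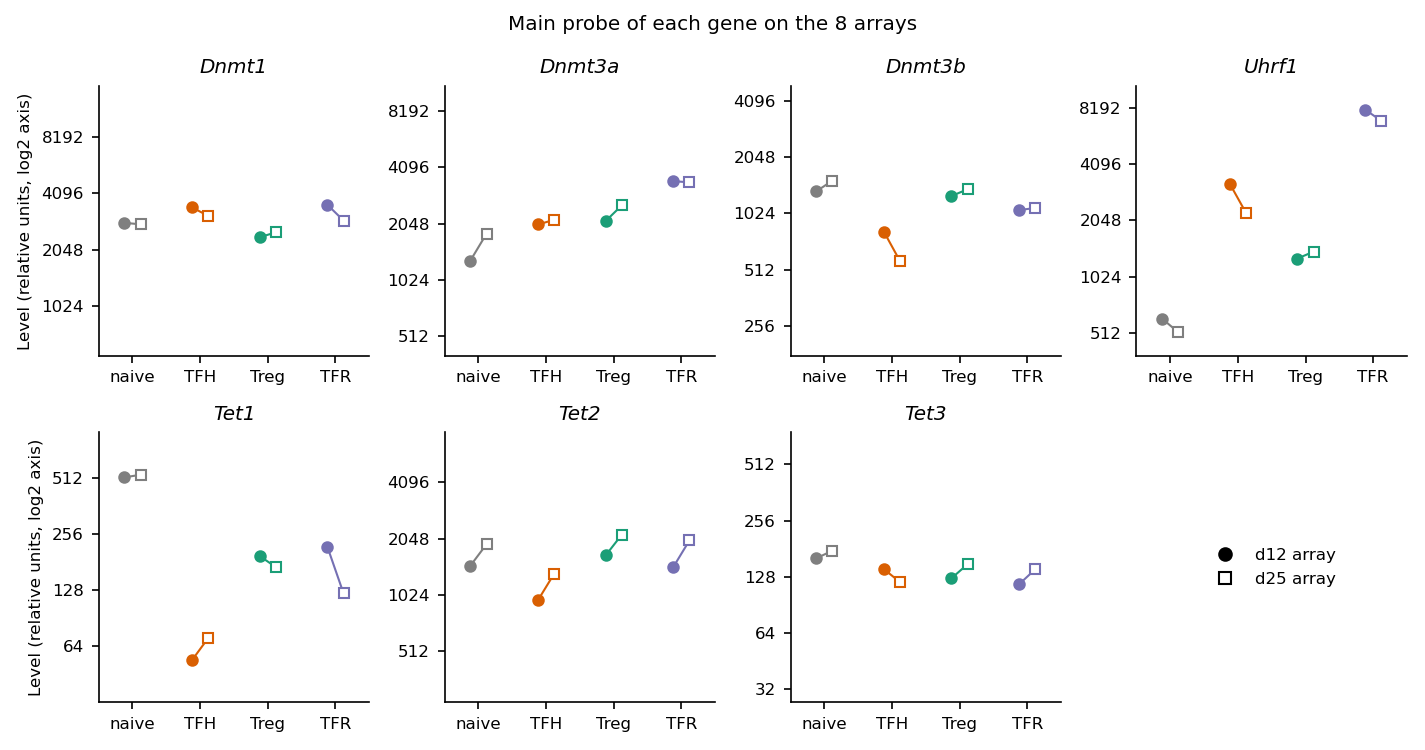
Level of the main probe of each of the 7 genes (relative units, log2 axis, each panel spanning the same ratio) in the 4 cell types. Filled circles are the d12 arrays and open squares the d25 arrays, joined by a line within a cell type. Uhrf1 runs from 515 RU in naïve cells to 8031 RU in TFR cells, and Tet1 from 54 RU in TFH cells to 531 RU in naïve cells, while Dnmt1 stays between 2386 and 3561 RU.

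**Figure D2:**
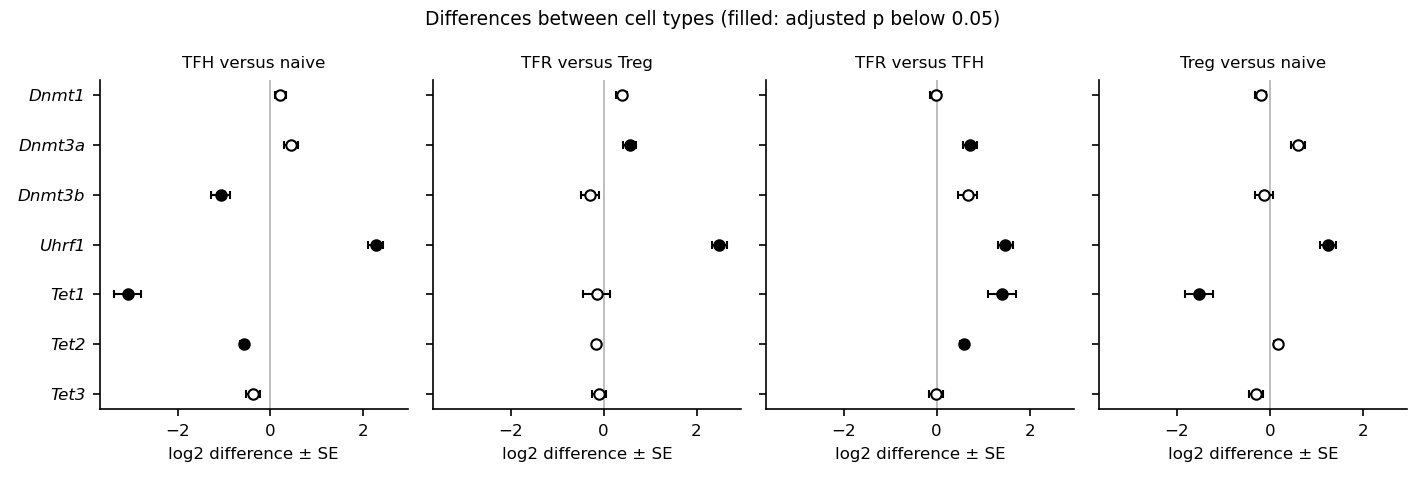
Log2 difference ± SE of the 7 genes in the 4 comparisons of cell types. Filled points were called at an adjusted p below 0.05, and the vertical line marks no difference. Uhrf1 lies to the right in all 4 panels, and Tet1 lies farthest to the left for TFH versus naïve cells, at -3.08.

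Maintenance methylation was followed through Uhrf1 and Dnmt1. Uhrf1 was at 610 and 515 RU in naïve cells at d12 and d25, at 1280 and 1393 RU in Treg cells, at 3218 and 2247 RU in TFH cells, and at 8031 and 6983 RU in TFR cells. The 4 cell types did not overlap, in the order naïve, Treg, TFH, and TFR. Uhrf1 rose 4.79-fold from naïve to TFH cells (log2 difference 2.26 ± 0.16 SE, adjusted p = 0.000755) and 5.61-fold from Treg to TFR cells (2.49 ± 0.16, adjusted p = 0.00117). At d12 and d25, that is within the slides, the first difference was 2.40 and 2.12 and the second 2.65 and 2.33. The 2 follicular changes of Uhrf1 differed by 0.23 ± 0.23 on the log2 scale (adjusted p = 0.606). TFR cells were 2.78-fold above TFH cells (adjusted p = 0.00591) and Treg cells 2.38-fold above naïve cells (adjusted p = 0.0153). On the shared slide of d12 these differences were 1.32 and 1.07 on the log2 scale. The first of these was lost without the TFR array of d12 or d25 and reached an adjusted p of at most 0.0614 with any single array left out. The second was not called with the slide as a block (1.08 ± 0.17, adjusted p = 0.0732) or without either array of the naïve or the TFR cells or the d25 array of the Treg cells, with an adjusted p of at most 0.0968. A second probe, for another Uhrf1 transcript, was above background on 0 arrays, and averaging it in lowered the 2 follicular differences of Uhrf1 to 1.14 and 1.52 (adjusted p = 0.00914 and 0.00535) and ended the call between Treg and naïve cells (0.64, adjusted p = 0.121).

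Dnmt1, the enzyme that Uhrf1 recruits, showed no such range. It was at 2848 and 2797 RU in naïve, 3445 and 3103 RU in TFH, 2386 and 2533 RU in Treg, and 3561 and 2930 RU in TFR cells. The Treg arrays were the lowest, and the TFH and TFR arrays overlapped and lay above those of naïve cells. The difference was 0.21 ± 0.12 between TFH and naïve cells (adjusted p = 0.196) and 0.39 ± 0.12 between TFR and Treg cells (adjusted p = 0.0512), neither of which was called. Under 4 of the 11 other settings the second was called, with the lowest adjusted p at 0.0357, so it lies at the threshold. Dnmt1 has 1 probe on the array.

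Sequences before 1 listed start of Uhrf1 and of Dnmt1 are shown. The pair acts at the same step, while the level of Uhrf1 ranged far more widely. The sequences are the 250 bases before the most downstream start listed (RefSeq, build GRCm38.p6), 5′ to 3′ on the strand of the gene. Capitals mark every match on either strand to CCAAT, to the Sp1 type motif GGGCGG, and to the E2F type motifs TTTCCCGC and TTTGGCGC.
Uhrf1, chr17:56304063-56304312, plus strand: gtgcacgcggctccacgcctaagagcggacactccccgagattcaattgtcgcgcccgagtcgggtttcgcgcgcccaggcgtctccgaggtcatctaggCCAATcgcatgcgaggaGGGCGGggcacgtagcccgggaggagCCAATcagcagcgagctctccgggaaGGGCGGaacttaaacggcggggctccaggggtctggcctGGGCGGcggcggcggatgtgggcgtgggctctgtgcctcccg
Dnmt1, chr9:20952624-20952873, minus strand: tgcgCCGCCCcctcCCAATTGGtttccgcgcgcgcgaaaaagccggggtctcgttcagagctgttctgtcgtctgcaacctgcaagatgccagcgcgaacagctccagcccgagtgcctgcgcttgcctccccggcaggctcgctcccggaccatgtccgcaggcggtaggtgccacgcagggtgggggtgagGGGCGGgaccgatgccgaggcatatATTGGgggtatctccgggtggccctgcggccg
In the window of 300 bases that adds 50 bases after the start, Uhrf1 had 2 CCAAT and 3 GGGCGG matches and Dnmt1 had 3 and 2. Neither the Uhrf1 window nor its second, more distant start held an E2F type match. Dnmt1 had 1 TTTGGCGC match, which lies after the start and outside the sequence shown. Of 32851 windows of the same length in the table, 37.4% held CCAAT, 35.7% GGGCGG, 1.07% TTTCCCGC, and 0.514% TTTGGCGC. Both windows held 33 CpG, against a median of 7 over all windows. Dnmt1 has 2 more distant starts, and the stretch shown lies downstream of both, so it is within the gene as read from them. Their windows held 12 and 2 CpG and 0 and 5 CCAAT matches, with no GGGCGG or E2F type match. The likeness of the windows shown therefore depends on the start chosen for Dnmt1. No promoter methylation or binding was measured in these cells, and a match describes the letters only.

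Of 11 partners of maintenance methylation, 10 were tested. From naïve to TFH cells 4 rose and 1 fell, and from Treg to TFR cells 5 rose and none fell. These 5 of 10 called in each stand beside 46.5% and 39.6% of all genes. The largest change was that of Lig1, the ligase that joins Okazaki fragments. In naïve cells it reached 2896 and 2844 RU, against 10784 and 15415 RU in TFH cells (log2 difference 2.17 ± 0.17, adjusted p = 0.000860). Hells, a chromatin remodeler needed for methylation of repeats, was at 124 and 176 RU in naïve, 352 and 358 RU in TFH, 192 and 282 RU in Treg, and 838 and 998 RU in TFR cells. It rose in TFH cells (1.26 ± 0.16, adjusted p = 0.00345) and in TFR cells (1.97 ± 0.16, adjusted p = 0.00176). Its cofactor Cdca7 rose in both as well (0.97 ± 0.21, adjusted p = 0.0177, and 1.04 ± 0.21, adjusted p = 0.0177). Uhrf2, the paralog of Uhrf1, was 1.32-fold higher in TFH than in naïve cells (adjusted p = 0.0262). Pcna, the replication clamp, was called between TFR and Treg cells (0.49 ± 0.09, adjusted p = 0.0125), while Usp7, a deubiquitinase that stabilizes Dnmt1 and Uhrf1, fell from naïve to TFH cells (-0.30 ± 0.09, adjusted p = 0.0451). Dnmt3l, a partner of the de novo enzymes, did not pass the filter on dim probes. The median of the list was 0.09 for TFH versus naïve cells and 0.46 for TFR versus Treg cells.

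Uhrf1 is known to be expressed in cycling cells, so the proliferation genes are set beside it. Of 15 tested, 11 rose and none fell from naïve to TFH cells (median 1.98), and 14 rose and none fell from Treg to TFR cells (median 2.07), beside 46.5% and 39.6% of all genes called in either direction. TFR cells were above TFH cells in 11 of the 15, and Treg cells above naïve cells in 5, beside 22.1% and 9.88% of all genes called in either direction. Mki67, the marker of cycling cells, was at 475 and 352 RU in naïve, 3621 and 2370 RU in TFH, 879 and 942 RU in Treg, and 6708 and 6573 RU in TFR cells, the same order as that of Uhrf1. The 16 genes of the list summed to 80986 to 81976 RU in naïve, 95663 to 97970 RU in Treg, 144540 to 158489 RU in TFH, and 239095 to 262680 RU in TFR cells. Their part in the differences of Uhrf1 was not tested.

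**Figure D3:**
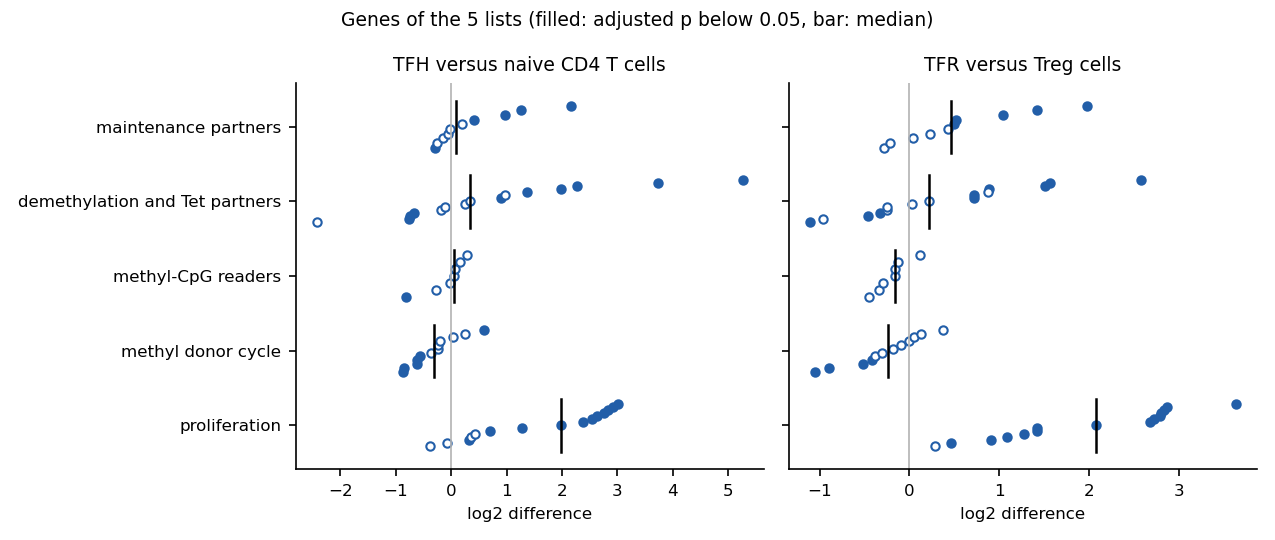
Log2 difference of each tested gene of the 5 lists for TFH versus naïve cells (left) and TFR versus Treg cells (right), with 1 point for each gene. Filled points were called at an adjusted p below 0.05 and bars mark the median of a list. The proliferation genes lie mostly to the right in both panels, with 11 and 14 of 15 called, while 1 of the 7 methyl-CpG readers was called on the left, Mbd1 at -0.81, and none on the right. Of all genes, 46.5% (left) and 39.6% (right) were called.

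Of the de novo enzymes, Dnmt3a was called from Treg to TFR cells, where it rose, and Dnmt3b from naïve to TFH cells, where it fell. Dnmt3a was at 1297 and 1811 RU in naïve, 2029 and 2148 RU in TFH, 2115 and 2569 RU in Treg, and 3462 and 3410 RU in TFR cells. TFR cells were the highest and naïve cells the lowest, and TFH and Treg cells overlapped. From Treg to TFR cells Dnmt3a rose 1.47-fold (log2 difference 0.56 ± 0.15, adjusted p = 0.0362), and it was 1.65-fold higher in TFR than in TFH cells (0.72 ± 0.15, adjusted p = 0.0291). The differences of 0.45 ± 0.15 between TFH and naïve cells (adjusted p = 0.0589) and of 0.60 ± 0.15 between Treg and naïve cells (adjusted p = 0.0715) were not called. The 2 called differences of Dnmt3a were lost with the slide as a block (adjusted p = 0.0628 and 0.0938) and without any single TFH, Treg, or TFR array (adjusted p of at most 0.190 and 0.169). They kept their sign at both days, at 0.71 and 0.41 and at 0.77 and 0.67.

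Dnmt3b was at 1342 and 1531 RU in naïve, 817 and 567 RU in TFH, 1267 and 1378 RU in Treg, and 1065 and 1094 RU in TFR cells. The TFH arrays were the lowest, the TFR arrays lay between, and naïve and Treg cells overlapped. Dnmt3b fell 2.11-fold from naïve to TFH cells (log2 difference -1.07 ± 0.20, adjusted p = 0.0112), with -0.72 at d12 and -1.43 at d25. The call was lost without the naïve array of d25 (adjusted p = 0.0682) and without the filter on dim probes (adjusted p = 0.0625). Both other probes of the gene fell too, by 1.36 ± 0.09 and by 0.84 ± 0.14 on the log2 scale (adjusted p = 0.000614 and 0.00933). Between TFR and Treg cells the main probe differed by -0.29 ± 0.20 and was not called (adjusted p = 0.290). There the other probes were called, at -0.52 ± 0.09 (adjusted p = 0.0119) and -0.62 ± 0.14 (adjusted p = 0.0267), so that the probes disagree on the call but not on the direction. The difference between the 2 follicular changes was 0.78 ± 0.28 for the main probe and was not called (adjusted p = 0.170). Its value was 1.10 without the TFH array of d12 and 0.46 without that of d25. On the other probes it was 0.83 ± 0.13, which was called (adjusted p = 0.0273), and 0.22 ± 0.20, which was not (adjusted p = 0.574).

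Of the Tet enzymes, Tet1 had the widest range. On its main probe it was at 514 and 531 RU in naïve, 54 and 71 RU in TFH, 195 and 170 RU in Treg, and 219 and 123 RU in TFR cells. Naïve cells were the highest, TFH cells the lowest, and Treg and TFR cells overlapped in between. The TFH values lay near the lower end of the measured range. The size of the fall to them depended on the background correction and the probe, as given below. Tet1 fell 8.44-fold from naïve to TFH cells (log2 difference -3.08 ± 0.29, adjusted p = 0.00159), with -3.24 at d12 and -2.91 at d25. This call held without each of the 8 arrays in turn, with an adjusted p of at most 0.0158, also without the TFH array of d25 with its higher B cell markers (-3.43, adjusted p = 0.00581). Between Treg and TFR cells the difference was -0.15 ± 0.29 (adjusted p = 0.721), with 0.17 at d12 and -0.46 at d25. Treg cells were 2.87-fold lower than naïve cells (adjusted p = 0.0423), and TFR cells were 2.65-fold higher than TFH cells (adjusted p = 0.0315), at -1.40 and 2.01 on the shared slide of d12. The first was lost with the slide as a block (adjusted p = 0.124) or without any single naïve or Treg array (adjusted p of at most 0.216). The second was lost without 6 of the 8 arrays, all but the d25 arrays of the TFH and TFR cells (adjusted p of at most 0.112).

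The follicular change of Tet1 therefore differed between the Foxp3- and the Foxp3+ pair, and this difference was tested itself. Subtracting the change in the Foxp3- pair from that in the Foxp3+ pair gave 2.93 ± 0.42 on the log2 scale (adjusted p = 0.0224), with 3.41 at d12 and 2.45 at d25. By its main probe, Tet1 was the only 1 of the 7 called in this test, which called 8.49% of all genes. Another background correction (normexp) lowered the value to 1.59 but kept the call (adjusted p = 0.00719), and lowered the fall from naïve to TFH cells to -1.64 (adjusted p = 0.000327). The call was lost without any of the same 6 arrays, with values of 2.48 to 3.06 and an adjusted p of at most 0.103. A second Tet1 probe was at 317 and 362 RU in naïve, 88 and 104 RU in TFH, 146 and 211 RU in Treg, and 145 and 139 RU in TFR cells. It fell by 1.82 ± 0.15 from naïve to TFH cells on the log2 scale (adjusted p = 0.00114) and differed by -0.30 ± 0.15 between TFR and Treg cells (adjusted p = 0.178). The difference between these changes was 1.52 ± 0.22 (adjusted p = 0.0229), smaller than on the main probe but also called. On this probe TFR and TFH cells differed by 0.57 ± 0.15 (adjusted p = 0.0614), which was not called.

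**Figure D4:**
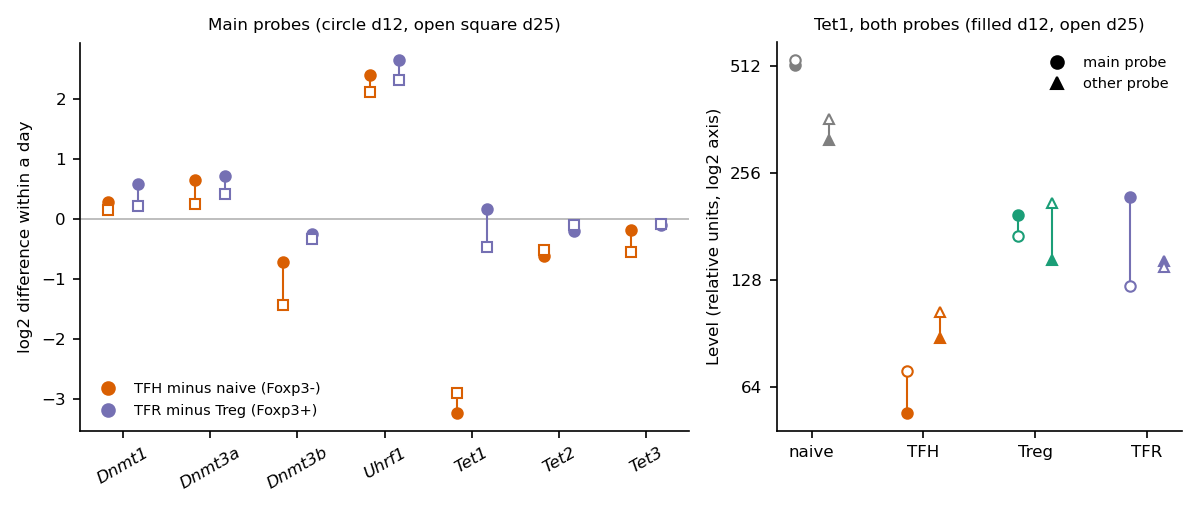
Left, log2 difference of the main probes within each day for TFH minus naïve cells and for TFR minus Treg cells (circles d12, open squares d25). Right, level of both Tet1 probes above background on all arrays (relative units, log2 axis, filled d12, open d25). Tet1 stands at -3.24 and -2.91 in the Foxp3- pair and at 0.17 and -0.46 in the Foxp3+ pair, while Uhrf1 lies above 2 in both.

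The stretches that these values refer to are given for the 4 genes that passed the test between TFH and naïve cells and for the second probe of Tet1. Shown are the first 30 of 60 bases of each probe as the array files list them, with the position of the whole probe in build NCBI37. No part is in capitals, since no base within them bears on the result.
Uhrf1, chr17:56462770-56462829: tgtgtctcatggaaactaaaccatttacta
Dnmt3b, chr2:153513403-153513462: gtgcaaagatgacagatgcccagagtttac
Tet2, chr3:133126751-133126810: gcttacttcctgagattttggctttgttta
Tet1 main probe, chr10:62274448-62274507: ctgtactcaaataacacacggcttctgttc
Tet1 second probe, chr10:62276042-62276101: gaatctacagacttctgtcccctgcaggct
Both Tet1 probes belong to the transcript NM_001253857. The one left, for NM_027384, was above background on 1 array only. The promoter of Tet1 is shown for the contrast with Uhrf1, with the same build, length and capitals as above.
Tet1, chr10:62887325-62887574, minus strand: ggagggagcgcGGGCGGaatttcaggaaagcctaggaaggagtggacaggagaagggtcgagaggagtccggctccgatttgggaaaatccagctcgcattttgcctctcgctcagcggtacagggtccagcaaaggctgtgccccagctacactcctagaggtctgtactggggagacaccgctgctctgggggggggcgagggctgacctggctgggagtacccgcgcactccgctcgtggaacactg
It held 1 GGGCGG match and no match to CCAAT or to the E2F type motifs, and 17 CpG.

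Tet2 was at 1463 and 1909 RU in naïve, 957 and 1328 RU in TFH, 1662 and 2149 RU in Treg, and 1439 and 2002 RU in TFR cells. The TFH arrays lay below all others, and the other 3 cell types overlapped. Tet2 fell 1.48-fold from naïve to TFH cells (log2 difference -0.57 ± 0.08, adjusted p = 0.00575), at -0.61 and -0.52 on the 2 days. It was 1.51-fold higher in TFR than in TFH cells (0.59 ± 0.08, adjusted p = 0.0111), at 0.59 on both days. Without a term for the day, both calls were lost (adjusted p = 0.151 and 0.213), and the second was also lost with the slide as a block (adjusted p = 0.0644), without the TFR array of either day (adjusted p of at most 0.0864), and with the mean of all Tet2 probes (0.26, adjusted p = 0.152). The change from Treg to TFR cells was -0.16 ± 0.08 (adjusted p = 0.197), and its difference from the change in the Foxp3- pair was 0.41 ± 0.12, which was not called (adjusted p = 0.111). A neighboring probe for the same transcript, NM_001040400, fell likewise in TFH cells (-0.58 ± 0.08, adjusted p = 0.00468). A probe for another transcript was above background on 7 arrays and differed by 0.00088 ± 0.23 between TFH and naïve cells.

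Tet3 was near the lower end of the measured range, at 161 and 177 RU in naïve, 141 and 120 RU in TFH, 126 and 150 RU in Treg, and 117 and 141 RU in TFR cells. The largest differences were -0.37 ± 0.15 between TFH and naïve cells (adjusted p = 0.103) and -0.30 ± 0.15 between Treg and naïve cells (adjusted p = 0.289), and none was called. A second probe, above background on 6 arrays, ranged from 24 to 112 RU and was not called either, at -1.09 ± 0.47 between TFH and naïve cells (adjusted p = 0.116) and -1.44 ± 0.47 between TFR and Treg cells (adjusted p = 0.0643). The difference between TFH and naïve cells on the main probe was -0.60 without the TFH array of d12 and -0.14 without that of d25. The remaining probe was above background on 0 arrays.

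Of 17 genes that act with the Tet enzymes or after them, 15 were tested. From naïve to TFH cells 6 rose and 3 fell, and the same counts were found from Treg to TFR cells, where 46.5% and 39.6% of all genes were called in either direction. Cxxc5, a CXXC zinc finger protein related to the DNA binding domain of Tet proteins, was at 504 and 321 RU in naïve, 13161 and 18121 RU in TFH, 429 and 318 RU in Treg, and 1596 and 3050 RU in TFR cells. It rose by 5.26 ± 0.42 on the log2 scale in TFH cells (adjusted p = 0.000949) and by 2.58 ± 0.42 in TFR cells (adjusted p = 0.0102). The stress gene Gadd45b, linked to repair-based demethylation, rose by 3.74 ± 0.15 (adjusted p = 0.000188) and 1.51 ± 0.15 (adjusted p = 0.00278). In the test of the difference between these 2 changes, Gadd45b was called (-2.23 ± 0.21, adjusted p = 0.00887), and Cxxc5, at -2.68 ± 0.59, was not (adjusted p = 0.0634). Gadd45a rose by 2.28 ± 0.32 in TFH cells (adjusted p = 0.00507), and the DNA glycosylase Neil2 in TFH (1.99 ± 0.23, adjusted p = 0.00292) and TFR cells (1.56 ± 0.23, adjusted p = 0.00807). Smug1, another DNA glycosylase, fell by 1.10 ± 0.14 from Treg to TFR cells (adjusted p = 0.00499). The glycosylase Tdg, which excises oxidized methylcytosine, rose by 0.72 ± 0.17 from Treg to TFR cells (adjusted p = 0.0281), and Idh2, an enzyme that makes the Tet cosubstrate 2-oxoglutarate in mitochondria, fell by 0.76 ± 0.12 from naïve to TFH cells (adjusted p = 0.00772). Cxxc4 was at the floor on all arrays.

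Of the 7 methyl-CpG readers, 1 was called between TFH and naïve cells, none between TFR and Treg cells, and 1 between Treg and naïve cells. These counts stand beside 46.5%, 39.6%, and 9.88% of all genes. Mbd1, a repressor that binds methylated CpG, was at 143393 and 153920 RU in naïve, 97162 and 73711 RU in TFH, 40693 and 38905 RU in Treg, and 38511 and 33008 RU in TFR cells. It fell by 0.81 ± 0.14 from naïve to TFH cells (adjusted p = 0.00965) and was 3.73-fold lower in Treg than in naïve cells (adjusted p = 0.00331), while no reader was called between TFR and Treg cells. Of the 12 genes of the methyl donor cycle, 1 rose and 5 fell from naïve to TFH cells, and 4 fell and none rose from Treg to TFR cells, near the 46.5% and 39.6% of all genes called. Ahcy, which clears S-adenosylhomocysteine, rose in TFH cells (0.59 ± 0.16, adjusted p = 0.0337). Methionine synthase Mtr (-0.88 ± 0.21, adjusted p = 0.0243) and Mtap of the methionine salvage pathway (-0.85 ± 0.18, adjusted p = 0.0181) fell. From Treg to TFR cells, Mtap (-1.05 ± 0.18, adjusted p = 0.0124) and Mat2a, which makes S-adenosylmethionine (-0.51 ± 0.08, adjusted p = 0.00841), fell. The median of the donor cycle was -0.30 and -0.24 in the 2 follicular comparisons.

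Between d25 and d12 none of the 7 genes was called, beside 0.0698% of all genes, which is 11 genes, while 4545 genes had an unadjusted p below 0.05. Tet2 was the nearest to the threshold. It was higher at d25 in all 4 cell types, by 0.37 to 0.48 on the log2 scale, with 0.43 ± 0.06 in the fit (unadjusted p = 0.000857, adjusted p = 0.0663). Under 3 of the other settings it was called, with the lowest adjusted p at 0.0340. Since each day had its own slides, this difference cannot be assigned to the day.

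The genes most like Dnmt3a, Dnmt3b, Uhrf1, and Tet1 over the 8 arrays were taken from 13298 genes above background on all arrays, by the smallest root mean square difference of gene-centered log2 levels. The likeness is a description, with cell types, pools, and slides shared by all genes. For Uhrf1 these were Gins2 (0.18), Ccna2 (0.19), and Fignl1 (0.19). Gins2 is a subunit of the replicative helicase complex and Ccna2 is cyclin A2, and Ccna2 was at 416 to 503 RU in naïve and 7703 to 8370 RU in TFR cells. For Tet1 they were Pxylp1 (0.29), Padi2 (0.32), and an unnamed transcript, ENSMUST00000067743 (0.35). Padi2, a peptidylarginine deiminase, was at 2202 and 2614 RU in naïve, 291 and 283 RU in TFH, 1202 and 1264 RU in Treg, and 825 and 759 RU in TFR cells. For Dnmt3b they were Arhgap9, Ccnd2, and Rwdd3, each at 0.11, and for Dnmt3a Plin2 (0.04), Upf3b (0.12), and Arsg (0.14). Ccnd2, the G1 cyclin D2, was at 53168 and 57430 RU in naïve and 34141 and 25680 RU in TFH cells.

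**Figure D5:**
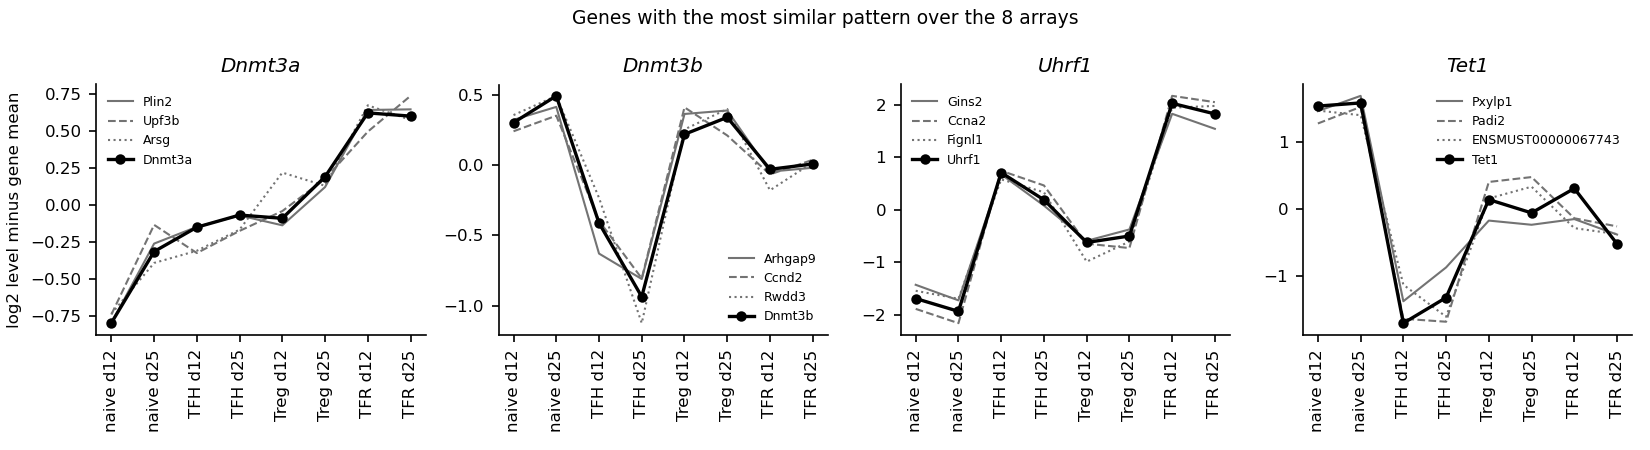
Log2 level minus the mean of the gene on each of the 8 arrays for Dnmt3a, Dnmt3b, Uhrf1, and Tet1 (black, with points) and for the 3 genes most like each (gray lines). The lines of Uhrf1 and of Gins2, Ccna2, and Fignl1 run together with a root mean square difference of 0.18 to 0.19, while those of Tet1 spread most, at 0.29 to 0.35.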

How the data were processed

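Sorted cells of pLN were hybridized to 8 one-color arrays. The authors scanned them with Agilent Feature Extraction 10.7.3.1 and deposited the intensity of each spot and, in a table, the normalized intensity of each probe, made by averaging 4 spots per probe (geometric mean, outlier spots excluded), quantile normalization, scaling of the 75th percentile to 1500 and a floor of 20. The same steps were rerun from the spots, and log2 values were used. Of the spots, 86.5% to 89.2% were kept; a probe with none left (2 to 20 per array) kept all its spots. A probe was well above background if over 50% of its kept spots were flagged so. No probe of the 39429 was saturated, and the number of arrays limits the precision. The brightest probe stood for a gene, and 15764 of 29924 genes, those with both arrays of at least 1 cell type above background, were tested with limma 3.58.1 (R 4.3.3; lmFit and eBayes; cell type and day; 3 residual degrees of freedom; Benjamini-Hochberg). The fit was also run on simulated independent arrays with known differences and a shift by day, but none by slide. That run therefore does not cover slide effects. Gene names and probe positions (NCBI37) are those of the files. Members and lists were chosen with earlier results of these data known. Named were the 7 genes, of each list at most the 4 called genes with the largest difference in a comparison, and the 3 genes most like each member whose cell types span at least 1 on the log2 scale. Usp7, Tdg and Ahcy were added after their values were seen. Alternatives were scaling alone, normexp (offset 50), the authors' table, a floor of 5, no spot excluded, probe means, 2 filters, no day term, slide as a block, an intensity trend, other probes and each array left out.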

Additional observations from a re-analysis of the deposited data

Results flagged for a closer look

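The change of Tet1 from naïve to TFH cells and its change from Treg to TFR cells differed by 2.93 on the log2 scale (limma interaction term, adjusted p = 0.0224), the second being the higher. The difference was positive at both days (3.41 and 2.45) and on the second Tet1 probe (1.52, adjusted p = 0.0229). These values come from the same 8 arrays and are not independent of it. With normexp the value was 1.59, and without the filter on dim probes the limma call was lost (adjusted p = 0.124). With 1 array left out the value was 2.48 to 3.38, and the call was lost in most of these fits.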

How the results depend on the processing

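For the called results of the 7 genes, 125 of 143 values under other settings kept their call, 18 lost it and none reversed, and with single arrays left out 66 of 104 kept it and 38 lost it. Uhrf1 (TFH versus naïve and TFR versus Treg cells) and Tet1 (TFH versus naïve cells) stayed called in each of these. Without the filter on dim probes, 1 of the 7 genes was called for TFR versus Treg, 2 for TFR versus TFH, 0 for Treg versus naïve cells and 0 for the difference between the follicular changes, with 3870, 1649, 702 and 418 of all genes; more genes are then tested. Besides Dnmt3b, the calls lost without this filter were Dnmt3a in TFR versus Treg (adjusted p = 0.121) and TFR versus TFH cells (0.111), Uhrf1 in Treg versus naïve cells (0.0889), and Tet1 in TFR versus TFH (0.146) and Treg versus naïve cells (0.184) and between the follicular changes (0.124). Without the day, both calls of Dnmt3a (0.0762 and 0.0589) and of Tet2 were lost, and the members were 1 for TFR versus Treg and 2 for TFR versus TFH cells, and all genes 2213 (TFR versus TFH), 1000 (Treg versus naïve) and 807 (follicular changes). With the slide as a block, the members were 1, 2 and 0 for TFR versus Treg, TFR versus TFH and Treg versus naïve cells, and all genes 1349, 523 and 691 for TFR versus TFH, Treg versus naïve and the follicular changes. Probe means left 1 member for Treg versus naïve cells. For d25 versus d12, normexp, the stricter filter and the trend each called 1 member, and all genes called were 28 with scaling alone, 855 with normexp, 1 with a floor of 5, 6 with no spot left out, 0 with probe means, 797 with the stricter filter and 1095 with the trend. With 1 array left out, the members called were 3 to 5 for TFH versus naïve, 1 to 2 for TFR versus Treg, 0 to 3 for TFR versus TFH and 0 to 2 for Treg versus naïve cells, 0 to 1 for the follicular changes and 0 to 0 for the day. All genes called were then 4309 to 6478, 2494 to 6731, 942 to 2915, 416 to 1865, 292 to 1096 and 0 to 0.

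Signs turned on the dimmest Tet2 probe (0.00088 for TFH versus naïve, -0.32 for TFR versus TFH cells, -0.42 for the follicular changes, -0.29 for the day). For results that were not called, they turned on another Dnmt3b probe (0.084 for Treg versus naïve cells and 0.22 for the day), for the follicular changes of Tet3 (-0.15 with probe means, -0.35 on the second probe), and for the day in Tet3 (-0.024 and -0.050), Uhrf1 (0.040 with probe means) and Tet1 (0.011 with no spot left out, 0.023 with probe means, 0.22 on the second probe). With 1 array left out, values crossed 0 for Tet1 (-0.60 to 0.30) and Tet3 (-0.21 to 0.015) in TFR versus Treg cells, Dnmt1 (-0.14 to 0.11) and Tet3 (-0.25 to 0.21) in TFR versus TFH cells, Dnmt3b in Treg versus naïve cells (-0.27 to 0.038), the follicular changes of Dnmt3a (-0.070 to 0.30), and the day in Dnmt3b (-0.12 to 0.12) and Tet1 (-0.33 to 0.077). The cause was not tested for any of these. With an array left out, the lone array of that cell type is assumed to vary like the others. Dim probes limit Tet3 and the dimmest probe of Tet2, low signal limits Tet1 in TFH cells, and 2 arrays per cell type limit all results. The day term already pairs the arrays of a day, so the values without it are those without pairing.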
